A study of Mus musculus with 8 samples.

Results

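Transcripts of the oxidative phosphorylation machinery were followed across 8 mouse livers: the subunits of complexes I to IV of the respiratory chain, those of ATP synthase (complex V), and cytochrome c. A probe set was taken where the platform annotation gave it exactly 1 gene symbol and that symbol was Sdha, Sdhb, Sdhc, Sdhd, Cyc1 or Cycs, or began with Ndufa, Ndufb, Ndufc, Ndufs, Ndufv, Uqcr, Cox4, Cox5, Cox6, Cox7, Cox8 or Atp5. This gave 101 of the 12488 probe sets on the array and 73 of its 8252 named genes, each represented by its brightest probe set. Of these 73 genes, 62 were bright enough to test, among 4869 such genes in all. They comprised 25 of 29 genes of complex I, 4 of 4 of complex II, 8 of 8 of complex III, 9 of 14 of complex IV, 12 of 14 of complex V, and Cycs. The remaining 3 tested genes, Ndufaf1, Ndufaf4 and Cox7a2l, share a prefix with the subunits but encode assembly or supercomplex factors.

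The livers came from 8 female Ames dwarf mice, 1 Affymetrix U74Av2 array per mouse. All 8 carried the df/df genotype, which leaves the pituitary without growth hormone, prolactin and thyrotropin, and all were kept on a diet reduced by 30% relative to freely fed females of the same genotype. They were 24 to 26 months old at death and form 1 group. Freely fed dwarf mice and wild-type mice were not analysed here. Every comparison is therefore between individual livers, and none measures what the diet or the genotype does.

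Oxidative phosphorylation takes electrons from NADH (complex I) and from succinate (complex II) to ubiquinone, then through complex III and cytochrome c to complex IV, which reduces oxygen. Complexes I, III and IV pump protons across the inner mitochondrial membrane, and ATP synthase lets them back through its membrane rotor to make ATP. The complexes other than complex II are assembled from subunits of both the nuclear and the mitochondrial genome. In liver they support gluconeogenesis, ureagenesis and lipid synthesis. Of 13 subunits encoded in mitochondrial DNA, 0 had a named probe set, so the values below concern nuclear transcripts only.

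The nuclear genes of this machinery are known to share promoter elements, among them the site of nuclear respiratory factor 1 (NRF1), first described at the rat cytochrome c gene. A window of 300 bases (250 before the annotated start site and 50 after it, RefSeq, GRCm38.p6) was given for 59 of the 73 genes. The letters GCGCATGCG were found on either strand in 9 of these 59 genes (15.3%), against 3.47% of 6573 genes named on the array and 1.95% of 27025 mouse genes. The genes with a match were Ndufa8, Ndufaf4, Atp5k, Cox6a1, Cycs, Atp5l, Uqcrc1, Uqcr11 and Atp5g2. To show how the element sits in genes of 4 different steps of the pathway, the stretch around the match is printed for 1 gene each of complexes I, IV and V and for cytochrome c, 5′ to 3′ on the strand of the gene (the minus strand for each). Only bases before the annotated start are shown, and capitals mark the matched letters or their reverse complement.
Ndufa8: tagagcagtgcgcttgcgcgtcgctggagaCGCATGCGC
Cox6a1: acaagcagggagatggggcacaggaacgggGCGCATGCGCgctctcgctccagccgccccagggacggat
Atp5l: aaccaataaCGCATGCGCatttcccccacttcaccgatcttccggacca
Cycs: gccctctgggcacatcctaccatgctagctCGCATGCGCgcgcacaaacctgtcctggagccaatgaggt

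These stretches lie at chr2:36049339-36049377 (Ndufa8), chr5:115349081-115349150 (Cox6a1), chr9:44920944-44920992 (Atp5l) and chr6:50566591-50566660 (Cycs). The first matched base stood 9 bases before the start in Ndufa8, 61 in Cycs, 162 in Cox6a1 and 241 in Atp5l. In Cox6a1 the letters overlap on both strands. The core letters of ETS family sites (CCGGAAG), the family of nuclear respiratory factor 2, were found in 16 of 59 genes (27.1%), against 17.1% of genes on the array and 9.93% of all genes. The letters of YY1 (AAGATGGCG) were found in 5 genes (8.47%), against 2.97% and 1.64%. Those of the estrogen-related receptors (TCAAGGTCA) were found in 1 gene, Sdhd (1.69%, against 0.304% and 0.466%). NRF1 or ETS letters were present in 21 genes and both in 4. These are matches of letters in a window and do not show binding.

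The ranges of the 62 transcripts between livers were about as wide as those of all tested genes, and most of the 62 varied together. The highest liver exceeded the lowest by 1.16- to 2.31-fold, with a median of 1.62-fold for the 62 genes and 1.61-fold for all 4869 tested genes. The median SD of log2 intensity between mice was 0.24 for the 62 genes and 0.23 for all tested genes, and 0 of the 62 exceeded the 90th percentile of all genes (0.50). Spread depends on brightness. For the 52 of the 62 genes with a mean intensity of at least 1000 the median SD was 0.24, against 0.21 for 1424 other genes at that brightness, a difference that was not tested. In the spread test (each gene's variance over the mice against that expected at its brightness, limma's squeezeVar, one-sided F test, Benjamini-Hochberg over all probe sets), 0 of 62 genes had an adjusted p under 0.05, as did 0 of 6265 probe sets (0.0%). The lowest adjusted p of the 62 was 0.947 (Sdhd) and the lowest over all probe sets 0.265 (Ubd, an interferon response gene, with 7460 in mouse 8 and 32.1 in mouse 7). Since even Ubd did not pass, the 0 calls do not show that the 62 genes were level. At an unadjusted p under 0.05 there were 0 of 62 genes, against 6.38% of probe sets. A chi-square test that used only the brightness trend called 4 of the 62 (6.45%, namely Atp5md, Ndufb11, Ndufc1 and Sdhd), against 18.3% of probe sets.

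**Figure D1:**
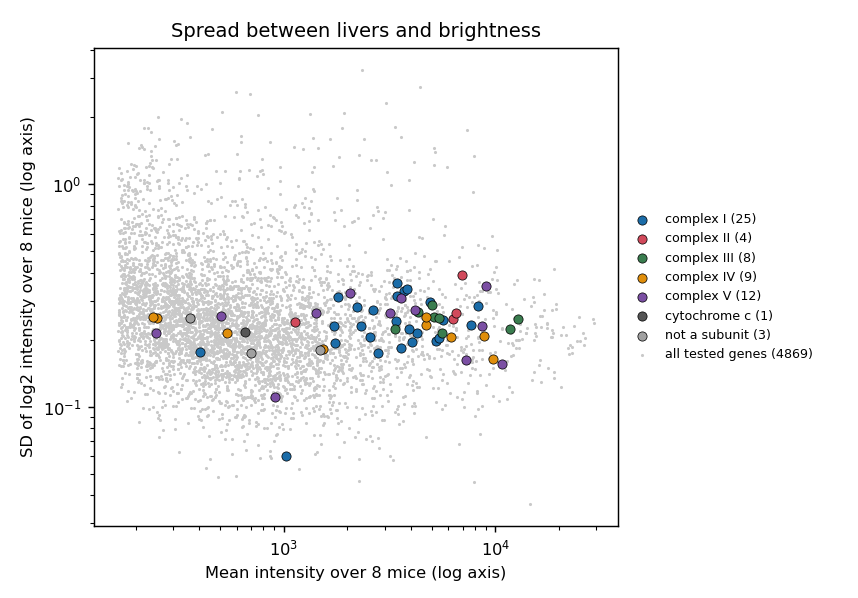
Each point is a tested gene, with its mean intensity over the 8 mice on the horizontal log axis and the SD of its log2 intensity over the mice on the vertical log axis. Colours mark the 62 oxidative phosphorylation genes by complex and grey points all 4869 tested genes. The coloured points lie inside the grey cloud, none above an SD of 0.39, and most on its bright side.

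The direction of the small differences was shared. The lowest of the 8 values lay in mouse 6 for 25 of the 62 genes (40.3%), against 18.4% of all tested genes, and in mouse 8 for another 25 (40.3%), against 11.7%. In all, 50 genes (80.6%) had their lowest value in 1 of these livers, against 30.1%, and 56 (90.3%) lay below their own mean in both, against 35.0%. The highest value lay in mouse 5 for 39 genes (62.9%), against 20.8%. Without mouse 8, the count lowest in mouse 6 was 45. No gene of the 62 had its lowest value in mouse 7 or its highest in mouse 8. The livers were singled out with earlier results of these data known, so these shares describe the 8 arrays and carry no test.

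**Figure D2:**
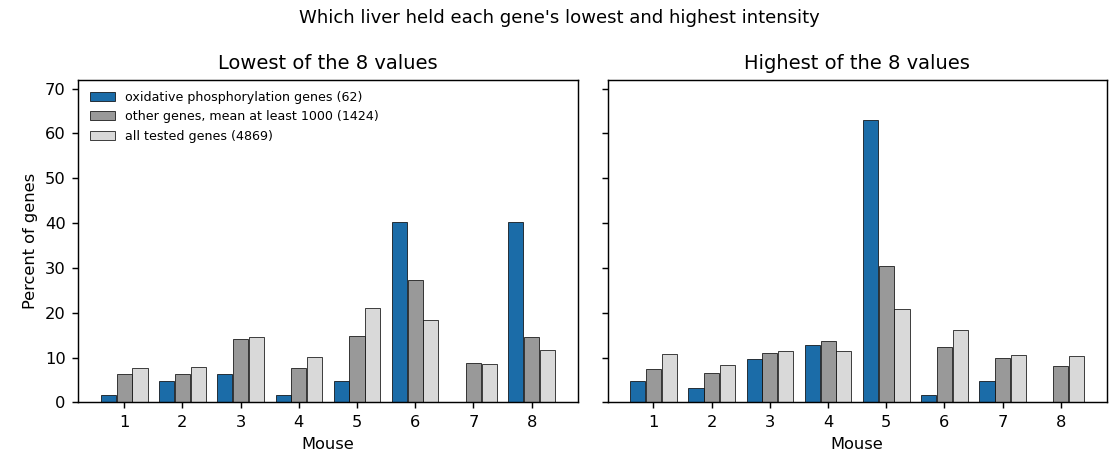
Bars give the percentage of genes whose lowest (left panel) or highest (right panel) intensity fell in each mouse, for the 62 oxidative phosphorylation genes, for other tested genes with a mean intensity of at least 1000, and for all 4869 tested genes. The bars of the 62 genes stand at 40.3% in mice 6 and 8 on the left and at 62.9% in mouse 5 on the right, above both sets of other genes.

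Array brightness moved with the same livers. Every array had a mean of about 500 after trimming 2% of values at either end, yet the median intensity was 146 in mouse 5, 174 in mouse 6 and 177 in mouse 8, with the other 5 arrays between 157 and 169. Bright genes in general were therefore read beside the 62. Of 1424 other tested genes with a mean of at least 1000, 41.9% had their lowest value in mouse 6 or 8, 30.5% their highest in mouse 5, and 48.3% lay below their own mean in both 6 and 8. Among the 52 oxidative phosphorylation genes at that brightness, 44 (84.6%) were lowest in mouse 6 or 8 and 38 (73.1%) highest in mouse 5. Among the 10 dimmer ones, 6 were lowest in mouse 6 or 8 and 1 was highest in mouse 5, against 24.2% and 16.0% of 3383 other tested genes under that brightness. With an intensity-dependent loess correction of each array, chosen after seeing this, 33 of the 62 genes (53.2%) were lowest in mouse 6 or 8, against 26.0% of all tested genes. Under the same correction 30 (48.4%) were highest in mouse 5, against 23.2%. The part of array brightness in the differences that remained was not tested.

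A score was taken for each complex in each mouse, the average, over its tested genes, of the deviation of log2 intensity from the gene's own mean. Taken over all 62 genes, mice 1 to 8 scored 0.05, −0.03, 0.04, 0.12, 0.27, −0.25, 0.04 and −0.25, which spans 0.52 log2 units or 1.43-fold. For the 1424 other bright genes the mean deviation spanned 0.06, while their median deviation was 0.07 in mouse 5, −0.09 in mouse 6 and −0.06 in mouse 8, the same direction at a smaller size. The score was highest in mouse 5 and low in mice 6 and 8, with the other 5 livers between −0.03 and 0.12. Its sign in mice 5, 6 and 8 was the same under quantile normalization, scaling to a common median and loess, for the 62 genes together and for each complex. Scaling to a common median raised the median of all tested genes in mouse 5 to 0.17, against which the score of the 62 genes there was 0.45.

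**Figure D3:**
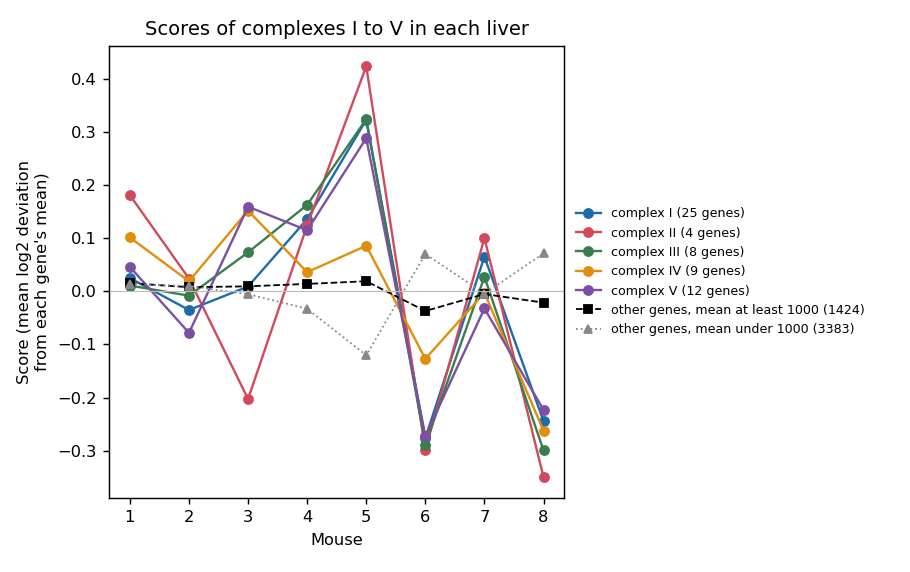
The score of each complex (vertical axis, mean log2 deviation of its genes from their own means) is plotted for mice 1 to 8 on the horizontal axis, with numbers of genes in the legend and other tested genes split at a mean intensity of 1000 in black and grey. Complexes I, II, III and V peak in mouse 5, and every complex falls below 0 in mice 6 and 8, while the mean of other bright genes stays within 0.04 of 0.

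**Figure D4:**
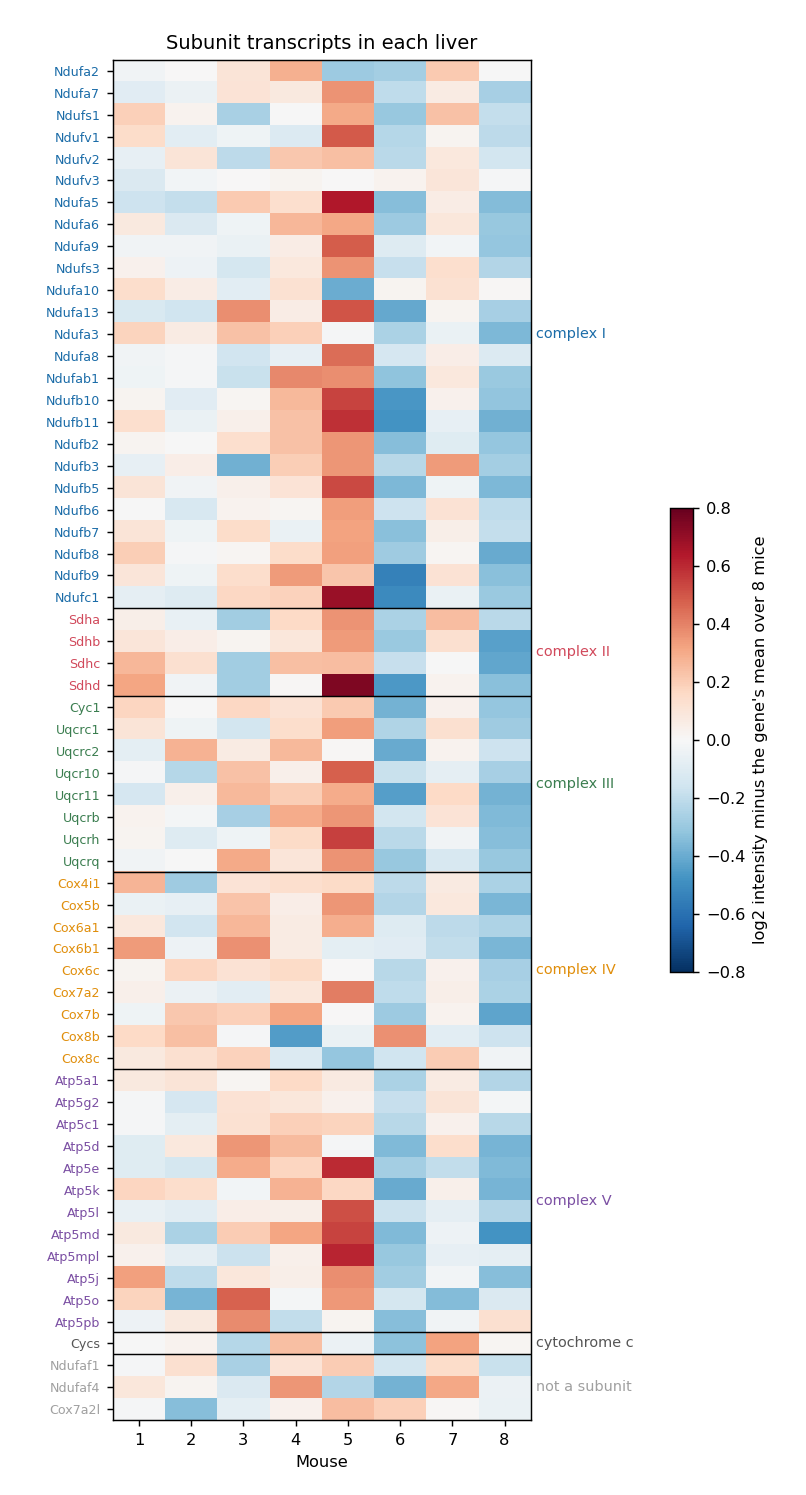
Each row is 1 of the 62 tested genes, grouped by complex, and each column a mouse. Colour gives the deviation of log2 intensity from that gene's mean, from −0.8 (blue) to 0.8 (red). The column of mouse 5 is mostly red, those of mice 6 and 8 are mostly blue, and Ndufa10, Ndufv3, Cox8b and Cox8c depart from that pattern.

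Complex I, the entry point for electrons from NADH, was lowest in mouse 6 (score −0.28) and highest in mouse 5 (0.32), a range of 0.60. Of its 25 tested genes, 20 were lowest in mouse 6 or 8 and 19 highest in mouse 5. The shares were 41.9% and 30.5% for other bright genes, and 30.1% and 20.8% for all tested genes. Modules of complex I differed in range. The N module, which oxidises NADH, had a range of 0.38 over 6 genes, the Q module, which reduces ubiquinone, 0.75 over 4 genes, and the membrane arm, which carries the proton pumps, 0.66 over 15 genes. All 4 tested genes of the Q module (Ndufa5, Ndufa6, Ndufa9 and Ndufs3) were lowest in mouse 8 and highest in mouse 5. The modules were not tested against each other. In 5 of the 62 genes (8.06%), against 8.69% of all tested genes, 1 liver stood apart by Dixon's criterion, and each time it was mouse 5. They were Ndufa8, Ndufa9, Ndufa10, Atp5l and Atp5mpl. Over all tested genes, mouse 5 also held the most extremes of any mouse (highest for 20.8%, lowest for 21.0%).

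Ndufb5, an accessory subunit of the membrane arm and the brightest probe set of complex I, averaged 8297 ± 1695 (SD, n = 8), with 6353 in mouse 6 as its lowest value, a median of 8191 and 11748 in mouse 5 as its highest. Ndufc1, another accessory subunit of the membrane arm, had the widest spread in the complex, with 2335 in mouse 6, a median of 3187 and 5361 in mouse 5 (2.30-fold, SD 0.36 on the log2 scale, unadjusted p 0.155). Ndufb11 followed with 2687 in mouse 6, a median of 3731 and 5608 in mouse 5 (2.09-fold, SD 0.34). In these 3 genes mouse 5 stood highest and mouse 6 lowest. The catalytic subunits that carry the flavin and iron-sulfur centres behaved likewise: Ndufv1, the NADH-binding flavoprotein, had 6465 in mouse 6, a median of 7254 and 10629 in mouse 5. Ndufs1, which holds several iron-sulfur clusters, had 1861 in mouse 6, a median of 2314 and 2825 in mouse 5.

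Mice 6 and 8 were also low in further genes of complex I. Ndufs3, a core subunit of the Q module, had 3425 in mouse 8, a median of 4012 and 5160 in mouse 5. Ndufa5, an accessory subunit of that module, had 2854 in mouse 8, a median of 3502 and 5646 in mouse 5 (1.98-fold). Ndufa13, also known as GRIM-19, had 1324 in mouse 6, a median of 1703 and 2499 in mouse 5. In each of these 3 genes mouse 5 was highest and the 2 lowest values lay in mice 6 and 8. Ndufab1, the mitochondrial acyl carrier protein, had 2074 in mouse 6, a median of 2552 and 3391 in mouse 4. Ndufb9, of the membrane arm, had 3314 in mouse 6, a median of 5190.1 and 6100.4 in mouse 4. In both of them mouse 5 came second, at 3352 and 5615.

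Ndufv3, Ndufa10 and Ndufa2 did not share the pattern. Ndufv3, a small subunit of the N module, was the steadiest of the 62 genes, with 951 in mouse 1, a median of 1032 and 1103 in mouse 7 (1.16-fold, SD 0.06). Ndufa10, an accessory subunit related to nucleoside kinases, had 305.0 in mouse 5, a median of 413 and 442 in mouse 1, so that the liver with the highest value of most subunits had its lowest. Ndufa2, a small N module subunit, had 2067 in mouse 5, a median of 2531 and 3079 in mouse 4. Mouse 5 held the lowest value of Ndufa10 and Ndufa2. Among the 62 genes it was lowest for 3 (4.84%), against 21.0% of all tested genes and 14.8% of other bright genes.

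In a further pair of complex I genes mouse 5 stood apart on the high side. In Ndufa8, which faces the intermembrane space, it was at 2349, against a median of 1670 and a lowest value of 1553 in mouse 3. In Ndufa9, the Q module subunit with a dehydrogenase-like fold, it was at 5414, against a median of 3795 and 3118 in mouse 8.

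Complex II, which oxidises succinate and is also an enzyme of the citric acid cycle, had the widest score range of the complexes (0.77), with −0.35 in mouse 8, −0.30 in mouse 6 and 0.42 in mouse 5. It rests on 4 genes. Sdhd, a membrane anchor and the gene with the widest spread of the 62, had 4887 in mouse 6, a median of 6660 and 11283 in mouse 5 (mean 6941 ± 2063, 2.31-fold, SD 0.39, unadjusted p 0.125). The value in mouse 5 exceeded the next highest, 8336 in mouse 1. Sdhc, the other membrane anchor, had 4839 in mouse 8, a median of 6746 and 7766 in mouse 1. Sdhb, the iron-sulfur subunit, had 4598 in mouse 8, a median of 6521 and 7853 in mouse 5. Sdha, the flavoprotein and the narrowest of the 4 (SD 0.24), had 926 in mouse 3, a median of 1117 and 1437 in mouse 5. Mouse 3 was low for Sdha, Sdhc and Sdhd, and the score of complex II there was −0.20, while that of complex V was 0.16.

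Complex III, which passes electrons from ubiquinol to cytochrome c, had the most shared extremes. Of its 8 tested genes 8 were lowest in mouse 6 or 8, and 7 were highest in mouse 5. The shares were 41.9% and 30.5% for other bright genes, and 30.1% and 20.8% for all tested genes. The score of complex III was −0.29 in mouse 6, −0.30 in mouse 8 and 0.32 in mouse 5. Uqcrq, a small membrane subunit and the brightest probe set of the complex, averaged 12778 ± 2228, with 10229 in mouse 6, a median of 12480 and 16183 in mouse 5. The widest spreads were in Uqcr11, another small subunit, with 3626 in mouse 6, a median of 5275 and 6033 in mouse 5 (SD 0.29), and in Uqcrh, the hinge protein that contacts cytochrome c1, with 3351 in mouse 8, a median of 4149.8 and 6209 in mouse 5 (SD 0.27). Mice 6 and 8 held the 2 lowest values of each of these 3 genes. Uqcrc1, a core protein, was the narrowest of the complex (SD 0.21), with 4551 in mouse 8, a median of 5688 and 7009.6 in mouse 5. Cyc1, the haem-bearing cytochrome c1, had 8934 in mouse 6, a median of 12257 and 13425 in mouse 5. Uqcrb, a small subunit near the ubiquinone site, had 4177 in mouse 8, a median of 5369.5 and 6818 in mouse 5. Uqcrc2, the other core protein, was the exception in its highest liver, with 2519 in mouse 6, a median of 3382 and 4050.1 in mouse 2.

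Complex IV, the oxidase that reduces oxygen, followed the others less closely. Its score was −0.26 in mouse 8, −0.13 in mouse 6 and highest in mouse 3 (0.15), with 0.09 in mouse 5. Of its 9 tested genes 6 (66.7%) were lowest in mouse 6 or 8 and 3 (33.3%) highest in mouse 5. The shares were 41.9% and 30.5% for other bright genes, and 30.1% and 20.8% for all tested genes. Under scaling to a common median the highest score was that of mouse 5 (0.27). Without Cox8b and Cox8c, forms known for restricted tissues, the 7 general subunits had a range of 0.48. Mouse 3 still scored highest (0.17), but mouse 5 nearly equalled it (0.16), and the score of mouse 6 fell to −0.19. All 7 genes lay below their own mean in both mice 6 and 8, against 48.3% of other bright genes and 35.0% of all tested genes. Of the 7 genes, 3 (42.9%) were highest in mouse 5. Cox6c, the brightest probe set and the narrowest (SD 0.16), averaged 9743 ± 1068, with 8048 in mouse 8, a median of 9871 and 10912 in mouse 2. Cox7b, a small membrane subunit, had 3480.0 in mouse 8, a median of 4709.6 and 5790.1 in mouse 4. Mouse 5, at 9690 for Cox6c and 4675 for Cox7b, was close to the median in both genes.

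The isoforms of complex IV differed in whether they were measured at all. Cox4i1, the general form of the largest nuclear subunit, had 437 in mouse 2, a median of 568 and 642 in mouse 1. Cox6a1, the form known in liver, had 7428 in mouse 8, a median of 8708 and 10769 in mouse 5, while the heart and muscle form Cox6a2 averaged 41.0 ± 4.45 and was too dim to test. Cox7a2, the general form of its subunit, had 5146 in mouse 8, a median of 6114 and 8157 in mouse 5, and the muscle form Cox7a1 averaged 51.4 ± 19.8, again too dim. Both general forms were thus highest in mouse 5 and lowest in mouse 8.

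Of the Cox8 forms, Cox8a, the general one, averaged 36.3 ± 15.0 on its probe set, under the floor of 37.2 applied to all intensities. Cox8b, the heart and muscle form, had 175 in mouse 4, a median of 233 and 307 in mouse 6, the liver where most subunits were low. Cox8c, known from human testis, had 1224 in mouse 5, a median of 1546 and 1748 in mouse 7. Cox6b1, the general form of a subunit facing the intermembrane space, had 193 in mouse 8, a median of 238 and 319.6 in mouse 3, and its testis form Cox6b2 averaged 58.3 ± 35.4, too dim to test. Cox5a, a subunit on the matrix side, averaged 28.8 ± 17.7 and lay below the floor in 6 mice, whereas Cox5b, its neighbour in the complex, had 3616 in mouse 8, a median of 4662 and 5938 in mouse 5. Of 9 markers of skeletal and heart muscle, 0 were bright enough to test. Neither the annotation of the bright Cox8c and the dim Cox8a probe sets nor how far a dim probe set reflects its transcript was tested, and Cox8c enters the score of complex IV.

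Complex V was lowest in mouse 6 (−0.27) and highest in mouse 5 (0.29). Of its 12 tested genes 11 were lowest in mouse 6 or 8 but 5 (41.7%) highest in mouse 5. The shares were 41.9% and 30.5% for other bright genes, and 30.1% and 20.8% for all tested genes. Atp5a1, the alpha subunit of the catalytic head and the brightest probe set, averaged 10713 ± 1104, with 8939 in mouse 6, a median of 11184 and 11901 in mouse 4. Its other 5 values lay between 10773 and 11432 and mouse 8 was at 9058, so it was low in 2 livers and level in the rest. The gamma, delta and epsilon subunits of the central stalk had a range of 0.57. Atp5e (epsilon) was the widest of them (SD 0.32), with 1568 in mouse 8, a median of 1848 and 3035 in mouse 5. Atp5c1 (gamma) had 6233 in mouse 6, a median of 7337 and 8278 in mouse 4. Atp5d (delta) had 1075 in mouse 8, a median of 1431 and 1783 in mouse 3.

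The small membrane subunits had the widest range in complex V (0.77 over 4 genes). Atp5md, known as DAPIT and associated with dimers of the enzyme, had 6326 in mouse 8, a median of 8907 and 12787 in mouse 5 (2.02-fold, SD 0.35). Mouse 5 stood apart in the next pair of genes. In Atp5l, subunit g, it was at 12285, against a median of 8206 and 7284 in mouse 8. In Atp5mpl, a short proteolipid, it was at 6304, against a median of 3932 and 3343 in mouse 6. The c subunit that forms the rotor ring comes from several genes with the same mature protein. Of these, Atp5g2 was the narrowest gene of the complex (SD 0.11), with 801 in mouse 6, a median of 919 and 985 in mouse 3, and Atp5g1 averaged 119 ± 20.9, too dim to test. The peripheral stalk, which holds the head still, was highest in mouse 3 (0.31) with 0.25 in mouse 5. Atp5o, its OSCP subunit, had 2722 in mouse 2, a median of 3367 and 4886 in mouse 3, and was the 1 tested gene of complex V lowest outside mice 6 and 8. Atp5j, its F6 subunit, had 2484 in mouse 8, a median of 3167 and 4071 in mouse 5. Atp5pb, its subunit b, had 196 in mouse 6, a median of 247 and 322 in mouse 3, with 251 in mouse 5. Mouse 3 was thus above the median in all 3 stalk genes, and mouse 6 below it.

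**Figure D5:**
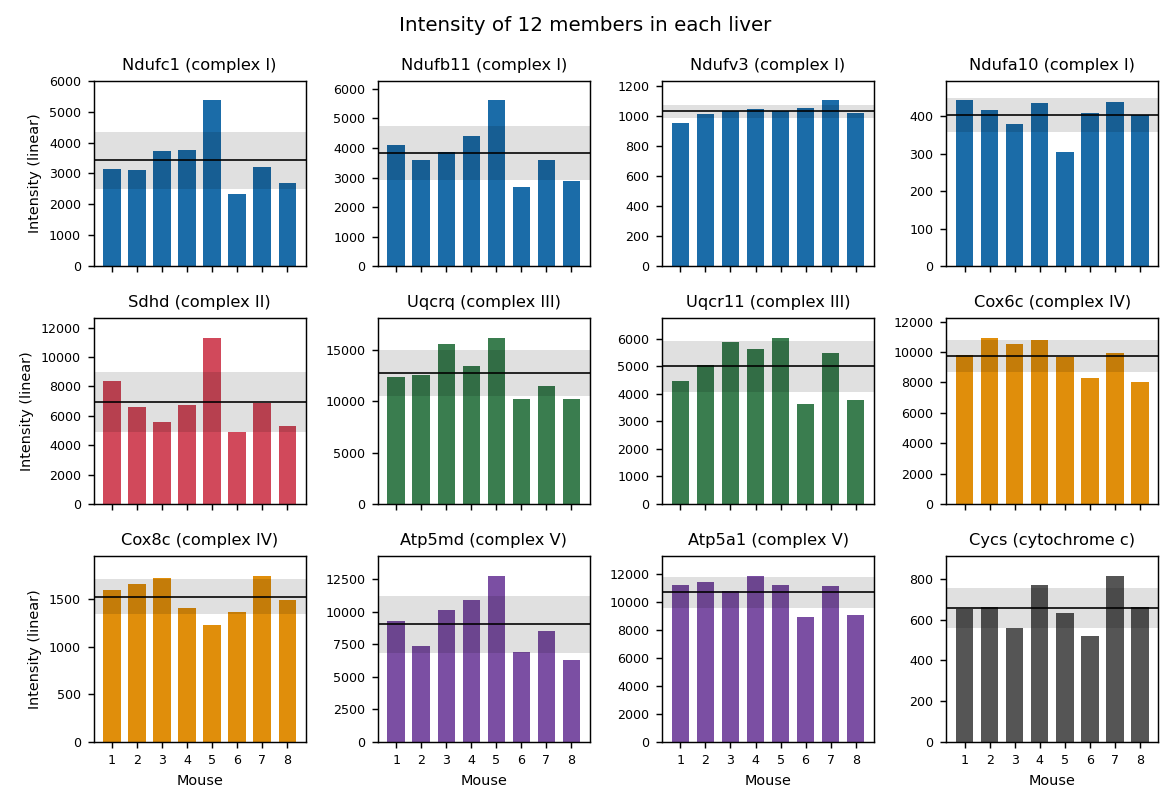
Bars give the linear intensity of 12 genes in each of the 8 mice, the black line the mean and the grey band 1 SD on either side. Ndufc1, Ndufb11, Sdhd, Uqcrq, Uqcr11 and Atp5md are tallest in mouse 5 and low in mice 6 and 8, Ndufa10 and Cox8c are shortest in mouse 5, and Ndufv3 is nearly level.

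Cytochrome c (Cycs), the carrier between complexes III and IV, had 519 in mouse 6, a median of 656 and 816 in mouse 7. It was low in mouse 6 but at 661 in mouse 8, close to its mean of 659 ± 98.5. Of the factors that share the prefixes, Ndufaf4, which helps assemble complex I, had 274 in mouse 6, a median of 354 and 456 in mouse 4. Ndufaf1, another such factor, had 580.4 in mouse 3, a median of 720.4 and 799 in mouse 5. Cox7a2l, a supercomplex factor, had 1163 in mouse 2, a median of 1474 and 1749.5 in mouse 5, with 1680.3 in mouse 6, so that it was not low there. The remaining dim genes were Atp5j2 (71.3 ± 18.9), Ndufa1 (157 ± 35.0), Ndufa12 (66.9 ± 18.8), Ndufc2 (79.1 ± 30.6) and Ndufs4 (164 ± 25.3). Ndufs4 and Ndufa1 lay just under the minimum mean of 165.2.

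Over the 8 mice the median Pearson correlation of 1891 pairs of the 62 genes was 0.613, and 86.5% of pairs were positive (Spearman median 0.548). For all pairs of tested genes the median was 0.002 and for pairs of other bright genes 0.047. The points share the 8 arrays and their scaling. Pairs within complexes I, II, III, IV and V had medians of 0.742, 0.793, 0.727, 0.433 and 0.583, and pairs within any complex 0.699, against 0.633 for pairs from different complexes. Without mice 6 and 8 the median over all pairs was 0.330. Each gene was also set against the mean of the other 61, for which the median correlation was 0.838. The highest were Ndufb11 and Ndufb10 (both 0.976). The 4 negative ones were Ndufa10 (−0.447), Cox8b (−0.414), Cox8c (−0.170) and Ndufv3 (−0.024).

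A second probe set of the same gene offers a reading of the same transcript on the same RNA. Among 8 genes with more than 1 tested probe set, 10 pairs were compared, and 8 had a positive correlation over the 8 mice. In exact two-sided permutation tests over 40320 pairings, 2 pairs had an unadjusted p under 0.05 and 0 after Benjamini-Hochberg adjustment over the 10. For Atp5c1 Pearson's r was 0.762 (exact p 0.0432, adjusted 0.191; Spearman's rho 0.810, adjusted exact p 0.0726), and r was 0.478 when the 2 mice most distant from the brighter probe set's median were left out. For Atp5d and its next brightest probe set r was 0.756 (exact p 0.0324, adjusted 0.191; rho 0.810), and 0.840 when its own 2 most distant mice were left out. The pair of Ndufb2 had r 0.682 (exact p 0.0572, adjusted 0.191; rho 0.833, adjusted exact p 0.0726), and 0.233 without its 2 most distant mice. The annotation gives both Ndufb2 probe sets the same source sequence, so their readings may not be independent. For the Atp5c1 pair it names no source sequence. Whether either pair shares probes was not checked.

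The other pairs were weaker. The further probe sets of Atp5d had r 0.342 and −0.245, that of Cox6c 0.427, that of Ndufa3 0.388, that of Cyc1 0.068, that of Ndufv2 0.003 and that of Atp5l −0.597, with adjusted exact p-values between 0.298 and 0.994. Spearman's rho was −0.333 for Atp5l, 0.333 for Ndufa3 and −0.071 for Ndufv2. The second Atp5l probe set averaged 168, close to the minimum for testing, and had 111 in mouse 5, where the bright one was highest. For Ndufa3, which was highest in mouse 3 on its bright probe set, the second one was highest in mouse 4 at 229.7. On the less bright probe sets, mouse 5 was lowest for Atp5l, for Cox6c (838.6, mean 1084) and for the next brightest of Atp5d (909.1, mean 1145). It was highest for Atp5c1 (5825.1), Ndufb2 (6547.6) and the dimmest of Atp5d (256.0). In the remaining pairs it was neither, with 2729.4 for Cyc1 (mean 3251). Mouse 5 was thus not the highest liver on every probe set of these genes. Of the 62 genes, 17 were read on a probe set whose name carries a special suffix. For most of them it marks probes shared with related transcripts, and those readings are uncertain within their families. For Cox6b1, Cox8b and Atp5e the suffix (r or i) has another meaning.

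The 2 livers with low subunit values also had the highest intensities of macrophage and interferon response genes. Of 17 tested macrophage genes 16 lay above their own mean in both mice 6 and 8, Clec4f, a marker of Kupffer cells, being the exception. Of all 4869 tested genes, 2259 lay above their own mean in mouse 6 and 2450 in mouse 8. At most 2259 were thus above it in both, and the joint count was not taken. The summed intensity of the 19 macrophage genes named on the array was 47193 in mouse 6 and 29948 in mouse 8, against 7426 to 14480 in the other 6 mice, with Fcer1g having a mean below the floor. Of 18 tested interferon response genes 18 lay above their mean in both, and their summed intensity was 71131 and 55892, against 4967 to 33991. Mouse 3 held that highest other interferon sum, and its subunit score was 0.04. The 12 hepatocyte markers summed to 163510 in mouse 6 and 174440 in mouse 8, against 173960 to 232550 in the other 6. Of them 9 lay below their mean in both, against 35.0% of all tested genes and 48.3% of other bright genes. Hnf4a and Fgb lay above it in both, and Apob in mouse 8. As a score, the 12 markers were lowest in mouse 6 (−0.222), while mouse 8 (−0.025) stood above mice 5 (−0.089) and 7 (−0.103). In whole liver, fewer hepatocytes and less of a transcript per hepatocyte cannot be told apart. The part of these cells in the subunit values was not tested.

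Genes that assemble or regulate the machinery were read from lists of known members. Of 14 tested assembly factors 8 were lowest in mouse 6 or 8 and 8 highest in mouse 5. The shares were 30.1% and 20.8% for all tested genes. Ndufaf1, Ndufaf4 and Cox7a2l are in this list and also among the oxidative phosphorylation genes above, so the list is not a separate set. Of these shared genes, Ndufaf4 was lowest in mouse 6, and Ndufaf1 and Cox7a2l were highest in mouse 5. The score of the 14 factors was −0.14 in mouse 6 and 0.22 in mouse 5. Of the 14 factors, 0 had an unadjusted spread p under 0.05, against 6.38% of probe sets. Tmem70, which assembles ATP synthase, had the widest spread of them, with 369 in mouse 6, a median of 521 and 979.7 in mouse 5. Cox17, the copper chaperone of complex IV and the brightest, was nearly level, with 1684 in mouse 6, a median of 1827 and 1927 in mouse 8. Of 57 tested mitochondrial ribosomal proteins, which translate the subunits encoded in mitochondrial DNA, 23 were lowest in mouse 6 or 8 and 24 highest in mouse 5. Of all tested genes the shares were 30.1% and 20.8%. Of other tested genes they were 41.9% and 30.5% at a mean of at least 1000, and 24.2% and 16.0% under it. The list holds genes on both sides of that brightness, and the differences were not tested. The score range of these proteins was 0.18. Mrpl52, the brightest, had 2969 in mouse 6, a median of 3108 and 3826 in mouse 5.

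Of 10 tested regulators, 1 had an unadjusted spread p under 0.05, against 6.38% of probe sets, and 0 an adjusted one. Ppara, the fatty acid receptor of hepatocytes, had 344 in mouse 6, a median of 1098 and 3038 in mouse 3 (8.84-fold, unadjusted p 0.00292, adjusted 0.363). Esrra, the estrogen-related receptor that activates many respiratory genes, had 586 in mouse 5, a median of 1139.9 and 1254 in mouse 1. It was thus lowest in the liver where most subunits were highest, which held the lowest value of 21.0% of all tested genes. Tfb2m, a mitochondrial transcription factor, had 294 in mouse 6, a median of 523 and 656 in mouse 5, and Yy1 had 497 in mouse 6, a median of 709 and 819.8 in mouse 5. Thra, a thyroid hormone receptor, had 452 in mouse 6, a median of 518 and 804 in mouse 5. In all 3 mouse 6 was lowest and mouse 5 highest.

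Gabpa, the DNA-binding part of nuclear respiratory factor 2, had 563 in mouse 6, a median of 683 and 822 in mouse 4, and its partner Gabpb1 had 157 in mouse 8, a median of 173 and 213 in mouse 3. Polrmt, the mitochondrial RNA polymerase, had 359 in mouse 8, a median of 391 and 471 in mouse 4, the narrowest of the list (SD 0.12). None of these was highest in mouse 5. Sirt3, a mitochondrial deacetylase, had 787 in mouse 4, a median of 1089.5 and 1528 in mouse 1. Nrip1, a corepressor of the estrogen-related receptors, had 51.9 in mouse 5, a median of 133 and 348 in mouse 8. The coactivator Ppargc1a averaged 44.0 ± 23.8 and Tfam, the packaging factor of mitochondrial DNA, 15.0 ± 14.4, and both were too dim to test.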

How the data were processed

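Liver RNA of 8 mice was hybridised to 1 array each. The deposited table holds 1 linear intensity per probe set and array. The sources used here do not give the authors' summary software, and about equal trimmed means show that the arrays had been scaled. Scans followed the standard protocol, per the labels. Intensities were raised to a floor of 37.2 (25th percentile), and those probe sets were tested on log2 values whose mean reached 165.2 (the median of all values), without 66 control probe sets. Array number limits the precision. The spread test used limma 3.58.1 (R 4.3.3) with 3.80 prior degrees of freedom. Correlations over 8 mice are descriptions, except exact permutation tests of probe set pairs (scipy 1.17.1). Symbols come from the platform annotation. All 73 were found by Entrez identifier in a RefSeq gene list, and 10 probe sets naming several genes were left out.

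The members, lists, livers and tests were chosen with earlier results of these data known. The lowest, median and highest value were given for the brightest, the 2 widest and the narrowest gene of each complex. They were also given for genes in which 1 mouse stands apart (Dixon, 0.526), tested genes of isoform families and tested regulators. Genes with several tested probe sets were treated likewise, except Ndufa3, Ndufb2 and Ndufv2. Ndufv1, Ndufs1, Ndufs3, Ndufa2, Ndufa5, Ndufa13, Ndufab1, Ndufb9, Sdhb, Uqcrb, Uqcrc2, Cox5a, Cox5b, Cox6b1, Cox6b2, Atp5j, Atp5o, Atp5pb, Ndufaf1, Ndufaf4, Cox7a2l and Cycs were named by role or after their values were seen. Alternatives changed the floor, filter, scaling, probe set choice, variance moderation and mice.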

Additional observations from a re-analysis of the deposited data

Results flagged for a closer look

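In 5 of the 62 genes (8.06%), against 8.69% of all tested genes, 1 liver stood apart from the other 7 by Dixon's criterion, in which the gap to the nearest liver is set against the whole range. Chance alone marks about 1 in 20 groups (5%). All 5 were in mouse 5, which also held the highest value of 20.8% and the lowest of 21.0% of all tested genes. How often it stood apart among all tested genes was not counted. Mouse 5 stood high in Atp5l (12284.5), Atp5mpl (6304.2), Ndufa8 (2348.5) and Ndufa9 (5414.4), and low in Ndufa10 (305). The second probe set of Atp5l had its lowest value, 111, in the same mouse.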

How the results depend on the processing

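Of 12 summary results, the count highest in mouse 5 (39 of 62) stayed within 1.5 times under 16 alternatives. It was 30 under loess, 32 under quantile normalization, 48 under a common median and 33 of 47 without probe sets of any special suffix. The adjusted F test called 0 of the 62 genes in each fit that used it. Scaling to a common median widened the median SD to 0.31 and the score ranges to 0.80 (0.797, all 62 genes), 0.856 (complex I), 1.05 (II), 0.905 (III), 0.63 (IV) and 0.818 (V). Leaving out mice 6 and 8, chosen after seeing the data, gave a median correlation of 0.33 and ranges of 0.299 (all), 0.358 (I), 0.332 (III), 0.155 (IV) and 0.366 (V). Loess, also chosen afterwards, gave 15 genes lowest in mouse 6 and a range of 0.357 for complex III. The chi-square test gave 4 adjusted and 10 unadjusted calls, and the F test without a filter 3 unadjusted calls among 73 genes. The cause of these moves was not tested, beyond the fewer mice and added genes by construction.

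Leaving out each mouse in turn gave 25 to 45 genes lowest in mouse 6 (45 without mouse 8), 39 to 42 highest in mouse 5, a median SD of 0.216 to 0.252, a median correlation of 0.539 to 0.714 and 0 calls throughout. The ranges ran over 0.373 to 0.52 (all), 0.412 to 0.599 (I), 0.53 to 0.773 (II), 0.462 to 0.623 (III), 0.279 to 0.414 (IV, 0.279 without mouse 8) and 0.432 to 0.56 (V). The counts for mice 6 and 5 have no value when that mouse is left out. No paired analysis was possible because the 8 mice form 1 group. Signal over background limits the 11 dim genes, of which Cox5a and Cox8a averaged below the floor.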

Other observations

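A list of mitochondrial carriers, channels, electron transfer proteins and related genes outside the complexes was lowest in mouse 6 (score −0.18). It was highest in mouse 4 at 0.14, over 16 tested genes. Etfb, a subunit of the flavoprotein that takes electrons from fatty acid oxidation, had 3469 in mouse 6, a median of 5017 and 5872 in mouse 3. Gpd2, the glycerol phosphate dehydrogenase of the inner membrane, had the widest spread of the list, with 129 in mouse 6, a median of 319 and 505 in mouse 3 (3.90-fold, unadjusted spread p 0.0593, adjusted 0.831, limma). Atpif1, the inhibitor of ATP synthase, was highest in mouse 8 (1456) and mouse 6 (1321), the livers in which most ATP synthase subunits were lowest. Slc25a1, the citrate carrier, was lowest in mouse 5 at 1275, against 2375 to 2909 in the other 7 mice. The last pair of genes was named after their values were seen.

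Markers of other cells were also read by liver. Of T, B and NK cell markers 6 of 13 named genes were tested, with scores of 0.80 in mouse 6 and 0.79 in mouse 8, carried by Ccl5 (2069 and 1685) and Ltb (651 and 824). Of the 6 genes 3 lay above their own mean in both mice and 2 below it, Cd79a (224 and 197) and Igha (437 and 379). Of neutrophil markers 2 of 9 were tested (1.48 and 0.02), of stellate cell and matrix markers 6 of 8 (0.42 and 0.07), of endothelial markers 3 of 7 (−0.02 and −0.62), of cholangiocyte markers 1 of 4 (0.70 and 0.32), and of erythrocyte markers 2 of 3 (−0.45 and −0.34). Hba-a1, a haemoglobin gene that marks blood left in the tissue, had its 3 lowest values in mice 8, 1 and 6 (4393, 5379 and 5819). The remaining livers held 8349 or more, up to 11574 in mouse 4 and 11685 in mouse 5.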
